A study of Homo sapiens with 4 samples.

Results

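The autophagy machinery is described here as 34 genes in human microglia-like cells that lack, or carry, the lipid phosphatase SHIP1. The genes were chosen by name and by their step in the pathway, with earlier results of these data known. Their transcripts were found by transcript identifier, or by gene symbol where the identifier was not listed. All 34 were present and all 34 had enough counts to be tested, among 22590 named genes with at least 1 estimated count and 15378 genes tested. The cells were iMGL, microglia-like cells differentiated from WTC11, a widely used human iPSC line. S1KO cells had been edited at INPP5D, the gene of SHIP1, and were set against unedited WT cells. There were 2 libraries per genotype, here called S1KO 1, S1KO 2, WT 1 and WT 2, of polyadenylated RNA with no treatment given in the labels. The design text mentions 2 clones of each genotype, but the labels do not say which library came from which clone. All p-values therefore measure the spread between these libraries, which may be partly technical.

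Macroautophagy wraps cytoplasm, damaged organelles or bacteria in a new double membrane, the autophagosome, which then fuses with the lysosome. The ULK kinase complex starts the process, and the class III PI3-kinase VPS34 marks the growing membrane with the lipid PI3P, which WIPI proteins read. ATG2 and ATG9 proteins feed lipid into the membrane. A pair of ubiquitin-like reactions then attaches ATG8 proteins (the LC3 and GABARAP families) to it, and cargo receptors bridge ATG8 to what is to be degraded. In microglia parts of the same machinery also act on phagosomes, where ATG16L1 directs LC3 onto the single membrane. SHIP1 removes the 5-phosphate of the PI3-kinase class I product PIP3, and PIP3 signalling feeds the TORC1 kinase, which holds ULK1 inactive.

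The libraries held 21516813 to 25927881 estimated counts. Mitochondrial transcripts took 52.32% and 39.24% of them in S1KO 1 and S1KO 2, against 14.2% and 18.9% in WT 1 and WT 2. Counts left outside mitochondrial transcripts were thus 10866559 and 13571447 in S1KO, against 18461467 and 21028441 in WT. The 12 microglia markers were all detected in every library, with summed levels of 2660 and 2697 CPM in S1KO against 3607 and 4163 CPM in WT. CPM here is the count scaled to library size and by TMM, a factor that sets the bulk of genes equal between libraries. TMEM119 was low throughout, at 3.11 and 1.32 CPM in S1KO against 2.80 and 0.807 CPM in WT. P2RY12 was lower in S1KO, at 11.45 and 12.08 CPM against 36.64 and 27.77 CPM (log2 fold change -1.45, edgeR quasi-likelihood adjusted p = 0.0483). CSF1R, TREM2, C1QA, CX3CR1, TYROBP and PTPRC also lay below both WT libraries in both S1KO libraries, without passing that test at 0.05. SPI1 was at -0.33 with overlap, and AIF1, TMEM119, GPR34 and CD68 had positive fold changes, also with overlap. The 8 mesenchymal markers summed to 7.28 and 20.9 CPM in S1KO, against 3398 CPM in WT 1 and 2.74 CPM in WT 2, so WT 1 stood apart. Of these, 2 mesenchymal markers were at 0 in S1KO 1, none in S1KO 2 or WT 1, and 4 in WT 2. Pluripotency markers summed to 14.5 and 14.8 CPM in S1KO against 5.58 and 6.60 CPM in WT, neural markers to 0.844 and 1.45 CPM against 8.40 and 1.11 CPM, and erythroid or megakaryocyte markers to 13.1 and 11.5 CPM against 7.10 and 10.4 CPM. The part of these differences in the results that follow was not tested. In bulk RNA, fewer cells of a type and less RNA per cell cannot be told apart.

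INPP5D, the edited gene, had 81.0 and 97.6 CPM in S1KO against 355.6 and 441 CPM in WT. It fell by 2.16 on the log2 scale (SE 0.21, edgeR quasi-likelihood adjusted p = 0.0184). It was negative in all 16 alternatives run and passed the threshold of 0.05 in 13 of them, among them DESeq2 (adjusted p = 6.27e-21). Without S1KO 1 it was at -2.04 and without S1KO 2 at -2.31. The call was lost in both of these fits, which leave 1 S1KO library.

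At the level of whole genes, no member of the autophagy machinery passed the main test between S1KO and WT cells. The lowest fold change was that of the VPS34 regulatory subunit PIK3R4, at -0.98 on the log2 scale, and the highest that of the ligase subunit ATG16L1, at 0.76. By edgeR's quasi-likelihood test, with p adjusted over all genes and a threshold of 0.05, none of the 34 genes was called in either direction, where 0.787% of the 15378 genes tested were called higher in S1KO and 0.15% lower (121 and 23 genes). The lowest adjusted p among the members was 0.101, for ATG16L1, in that test. At an unadjusted p under 0.05, 5 members were higher in S1KO and 2 lower, where 10.2% of all genes were higher and 9.21% lower. DESeq2 called 1 member higher, ATG16L1 (adjusted p = 0.0147), and none lower, where it called 4.24% of all genes higher and 3.28% lower (652 and 505 genes). Both S1KO libraries lay above both WT libraries for 15 members and below both for 5, where 26.0% of all genes lay above and 25.8% below. The fold change was positive for 24 members and negative for 10, where 48.7% of all genes tested were positive. Its median was 0.24 on the log2 scale over the members, against -0.016 over all genes tested. On the TPM scale, where the larger mitochondrial share leaves less of the total to other genes in S1KO, the median of all genes was -0.78, that of the members was -0.69, and only ATG12 and ATG13 of the members were above 0 (limma on log2(TPM + 1), which called 133 genes higher and 2760 lower). With TPM rescaled without mitochondrial transcripts the medians were 0.14 for the members and -0.077 for all genes. An offset for effective transcript length left 21 members positive, with BECN1, GABARAP, RB1CC1 and WIPI1 turning negative and CALCOCO2 positive. Directions below are from the TMM-scaled counts. The 95% intervals of the members' fold changes had a median width of 0.985 on the log2 scale. Most of these intervals held 0, and such differences were not detectable with these libraries.

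**Figure D1:**
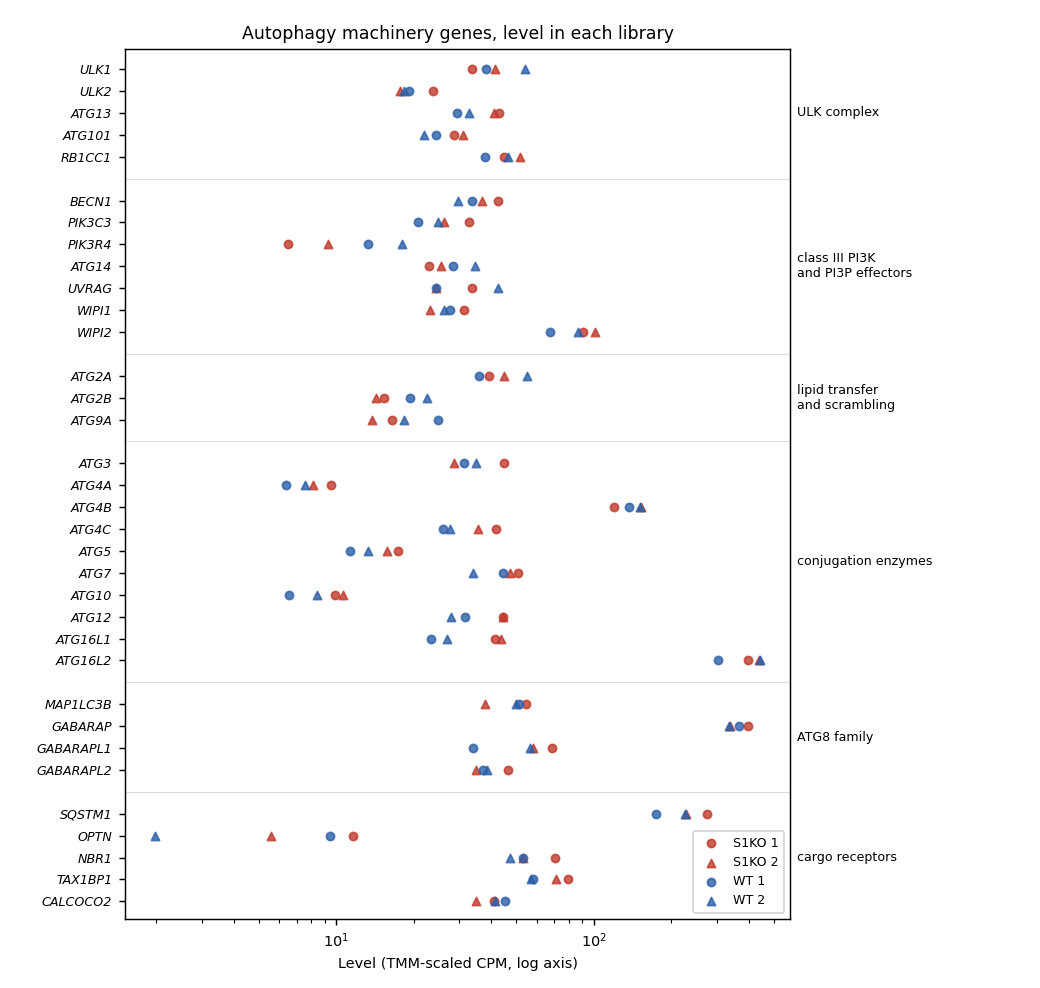
Level of each of the 34 autophagy genes in each library, in TMM-scaled CPM on a log axis, ordered by step. Red symbols are S1KO 1 (circle) and S1KO 2 (triangle) and blue symbols WT 1 and WT 2. Both blue symbols lie left of both red ones for 15 genes, among them ATG16L1 and ATG12. They lie right of both red ones for 5 genes, among them PIK3R4 and ATG2B, and in the remaining rows the groups overlap.

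In the initiation complex ATG13, the subunit that joins the ULK kinases to their scaffold, had the highest mean TPM without mitochondrial transcripts (56.2), while in CPM, which takes no account of length, the scaffold RB1CC1 was above it in every library. ATG13 had 42.8 and 40.8 CPM in S1KO, against 29.5 and 32.8 CPM in WT, with no overlap of the groups. Its log2 fold change was 0.42 (SE 0.17, edgeR adjusted p = 0.242). ATG101, which stabilises ATG13, had 28.6 and 31.0 CPM in S1KO against 24.4 and 21.9 CPM in WT (log2 fold change 0.36, SE 0.18, edgeR adjusted p = 0.332). Both ATG13 and ATG101 were higher in each S1KO library than in each WT library, though neither passed the test. Of the ATG13 TPM, protein-coding transcripts held 52.1% and 36.5% in S1KO and 64.65% and 49.2% in WT. For ATG101 they held 88.25% or more in every library. The rank of ATG13 by TPM thus rests in part on noncoding transcripts. The kinases themselves differed less, with log2 fold changes of -0.30 for ULK1 and 0.14 for ULK2, and RB1CC1, also called FIP200, was at 0.19, with 44.7 and 51.5 CPM in S1KO against 37.9 and 46.5 CPM in WT.

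Among the 7 genes of the VPS34 complexes and their effectors, PIK3R4 had the lowest fold change of all 34 members. PIK3R4 encodes VPS15, the regulatory subunit without which VPS34 is not active. Its level was 6.47 and 9.26 CPM in S1KO, against 13.2 and 18.0 CPM in WT. The groups did not overlap, and the log2 fold change was -0.98 (SE 0.29, 95% interval -1.68 to -0.28, edgeR adjusted p = 0.153). It was negative in all 16 alternatives run, and was at -1.18 without WT 1, a fit with 1 WT library. The catalytic subunit itself, PIK3C3, was at 0.37 and BECN1, the scaffold, at 0.33, with BECN1 turning to -0.12 under an offset for transcript length. The largest level in this step was that of WIPI2, which binds PI3P and recruits ATG16L1, with 90.6 and 101.4 CPM in S1KO against 67.8 and 86.5 CPM in WT (log2 fold change 0.32, SE 0.18, edgeR adjusted p = 0.396). WIPI1, its relative, was at 0.020. ATG14, which targets VPS34 to autophagosome formation, had 23.0 and 25.4 CPM in S1KO against 28.4 and 34.4 CPM in WT (log2 fold change -0.38, SE 0.19, edgeR adjusted p = 0.343). UVRAG, which takes its place in the endosomal complex, was at -0.21, with 33.5 and 24.3 CPM in S1KO against 24.5 and 42.3 CPM in WT. The ATG14 value depended on 1 transcript, described below.

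The 3 lipid transfer genes all had negative fold changes, where 7883 of all 15378 genes tested had one, and none passed the test. ATG2B, a bridge along which lipids move from the endoplasmic reticulum, had 15.3 and 14.2 CPM in S1KO against 19.4 and 22.6 CPM in WT (log2 fold change -0.51, SE 0.20, edgeR adjusted p = 0.24). ATG9A, the scramblase of the seed vesicles, had 16.4 and 13.8 CPM in S1KO against 24.9 and 18.3 CPM in WT (log2 fold change -0.52, SE 0.24, edgeR adjusted p = 0.291). Neither ATG2B nor ATG9A overlapped between the groups, where 25.8% of all genes had both S1KO libraries below both WT libraries. ATG2A, the other bridge, did overlap, with 39.1 and 44.9 CPM in S1KO against 35.7 and 55.0 CPM in WT (log2 fold change -0.11, SE 0.24), and it was at 0.24 without WT 2.

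Of the 10 conjugation enzymes, 9 had a positive fold change, where 48.7% of all genes tested had one. Their median was 0.39 on the log2 scale, against -0.016 over all genes, and 7 of the 10 had both S1KO libraries above both WT libraries, where 26.0% of all genes had. None of the 10 passed edgeR's test. ATG12 is in both counts, and without 1 noncoding transcript, described below, it was at -0.045. With limma on log2(TPM + 1), only ATG12 of the 10 was above 0, where the median of all genes was -0.78. ATG16L1 places the ATG12-ATG5 ligase on the membrane. Its level was 41.2 and 43.6 CPM in S1KO, against 23.2 and 26.9 CPM in WT. The lower S1KO library was thus well above the higher WT library, and the log2 fold change was 0.76 (SE 0.18, 95% interval 0.33 to 1.19, edgeR adjusted p = 0.101). It passed with DESeq2 and with no filter on low counts (0.74, edgeR adjusted p = 0.0393). Without WT 2, a fit with 1 WT library, it was at 0.87. It turned to -0.21 with limma on log2(TPM + 1), and was at 0.64 with TPM rescaled without mitochondrial transcripts. ATG16L1 lies beside the edited gene: in GRCh38 INPP5D ends at chr2:233207903 and ATG16L1 (chr2:233210051-233295674, same plus strand) starts 2148 bases further on. Whether that position has a part in the value was not tested. Of its 36 transcripts in the files, 18 are copies on alternate contigs, and all were added. ATG4C, a protease that trims and recycles ATG8, had 41.8 and 35.4 CPM in S1KO against 25.9 and 27.5 CPM in WT (log2 fold change 0.53, SE 0.18, edgeR adjusted p = 0.195). The other proteases were at 0.35 for ATG4A and -0.082 for ATG4B. ATG4B had by far the largest gene sum of the proteases, with 119.9 and 152.1 CPM in S1KO against 136.9 and 151 CPM in WT. Of its counts, 29.2% and 28.0% in S1KO and 30.35% and 30.1% in WT fell on protein-coding transcripts. For ATG4C the share was 100% in every library. The E1-like enzyme ATG7 was at 0.32, the E2-like enzymes ATG3 and ATG10 at 0.14 and 0.46, and ATG5, the partner of ATG12, at 0.43. ATG12 and ATG16L2 are taken up with their transcripts below.

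**Figure D2:**
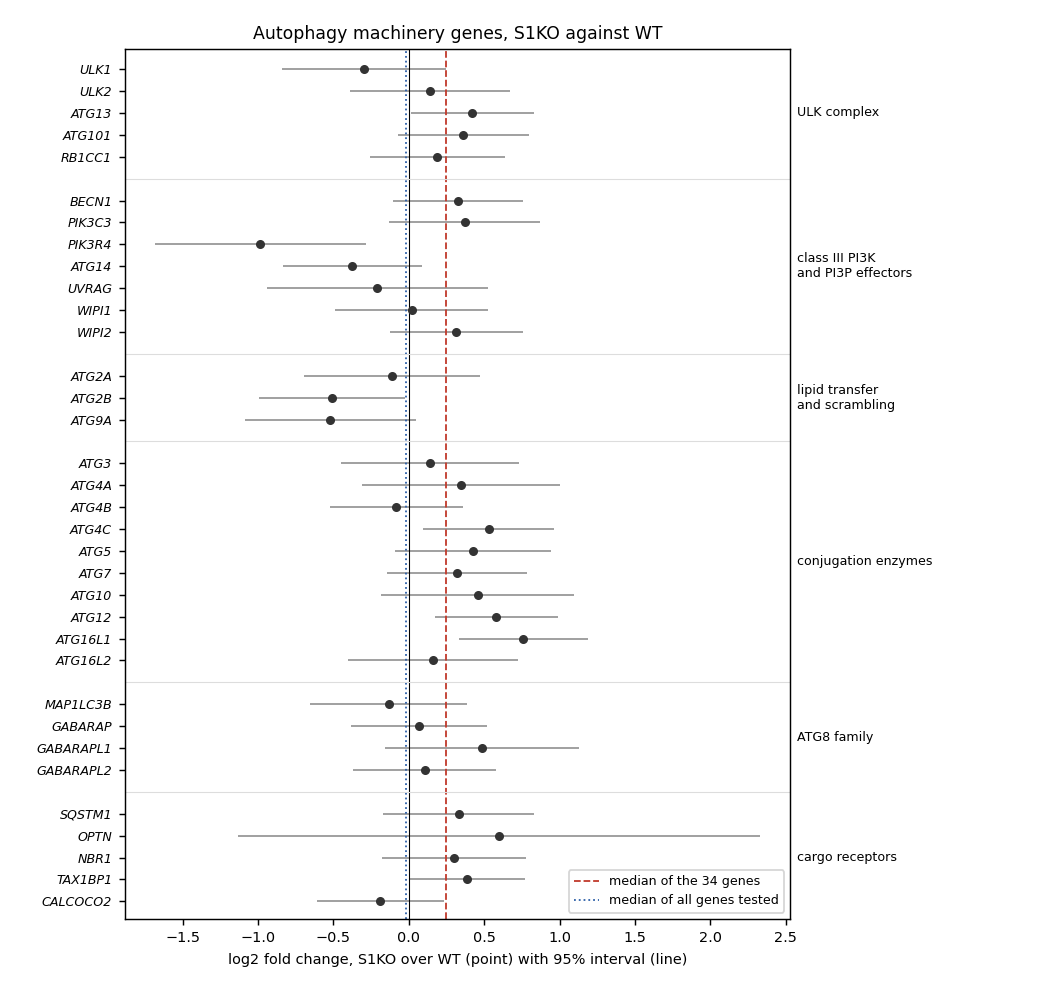
Log2 fold change of S1KO over WT for each of the 34 autophagy genes (points) with its 95% interval (lines), from edgeR on TMM-scaled counts. The dashed red line is the median of the 34 genes (0.24) and the dotted blue line that of all genes tested (-0.016). PIK3R4 lies furthest left (-0.98) and ATG16L1 furthest right (0.76), and the interval of OPTN is the widest.

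The ATG8 proteins, which coat the autophagosome and bind the receptors, had log2 fold changes from -0.13 to 0.49, and none passed the test. GABARAP, the most abundant member of all per transcript length, had 397.9 and 336.4 CPM in S1KO against 366.7 and 333.9 CPM in WT (log2 fold change 0.068, SE 0.19, 95% interval -0.39 to 0.52). MAP1LC3B, the LC3 gene most used as an autophagosome marker, had 54.5 and 37.6 CPM in S1KO against 51.0 and 49.9 CPM in WT (log2 fold change -0.13, SE 0.22, 95% interval -0.65 to 0.39). GABARAPL2 had 46.5 and 34.9 CPM in S1KO against 37.2 and 38.4 CPM in WT (log2 fold change 0.10, SE 0.20). These genes overlapped between the groups. GABARAPL1 had 68.6 and 57.8 CPM in S1KO against 33.9 and 56.3 CPM in WT, so the groups were separated by little, with WT 1 as the low library (log2 fold change 0.49, SE 0.27, edgeR adjusted p = 0.373). With 1 WT library left, it was at 0.90 without WT 2 and at 0.16 without WT 1. MAP1LC3B has a near-identical copy, MAP1LC3B2, to which reads could be assigned. It had 5.57 and 44.8 estimated counts in S1KO against 8.10 and 10.0 in WT, so the split between the copies is uncertain.

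Of the cargo receptors, SQSTM1 (p62, which binds ubiquitinated cargo) had the highest level, with 276 and 227.5 CPM in S1KO against 173.7 and 226.7 CPM in WT (log2 fold change 0.33, SE 0.21, edgeR adjusted p = 0.432). S1KO 2 and WT 2 were nearly equal, and the groups were separated only by that small step. TAX1BP1, a receptor for ubiquitin with a part in clearing aggregates and bacteria, had 79.3 and 71.2 CPM in S1KO against 58.2 and 56.8 CPM in WT (log2 fold change 0.39, SE 0.16, edgeR adjusted p = 0.252), with no overlap. NBR1, which works with p62, had 70.3 and 52.9 CPM in S1KO against 53.0 and 47.0 CPM in WT (log2 fold change 0.30, SE 0.20). CALCOCO2 (NDP52), a receptor for bacteria and mitochondria, had 40.9 and 34.9 CPM in S1KO against 45.1 and 41.2 CPM in WT (log2 fold change -0.19, SE 0.18), and turned to 0.15 under the length offset. OPTN, a receptor in mitophagy, varied most within a genotype, with 11.6 and 5.58 CPM in S1KO against 9.42 CPM in WT 1 and 1.98 CPM in WT 2. Its log2 fold change of 0.60 had an SE of 0.72. Without WT 1, the library with high mesenchymal markers, it was 2.11, with WT 2 and its 61.9 counts as the only WT library. Without WT 2 it was -0.13.

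Levels differed far more between genes than between genotypes. In TPM, which counts per transcript length, rescaled without mitochondrial transcripts and averaged over the 4 libraries, GABARAP stood at 861, ATG16L2 at 479.6, SQSTM1 at 255.4, ATG4B at 172.7 and GABARAPL2 at 95.5. At the low end were ATG4A at 9.21, OPTN at 8.79 and ATG2B at 5.09. ATG16L2 was thus far above its relative ATG16L1 (22.7) on this scale.

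For ATG12, ATG14 and ATG16L2 the make-up of the gene sum differed more between the genotypes than its size. They are the 3 members, of 32 with several transcripts and enough counts to examine, in which a single transcript's share of the gene lay at least 20 percentage points apart between the groups, where 6.47% of 9057 genes examined held such a transcript (586 genes). The count of 3 was near the share over all genes, so such a transcript was not particular to the members. The 20-point limit and the transcripts named were chosen after their values were seen. Where a read fits several transcripts the quantification divides it by estimate, and the uncertainty of that division is not part of any interval given here. Levels of single transcripts in CPM were filtered and scaled on their own (TMM factors 0.626 and 0.951 in S1KO, 1.32 and 1.27 in WT). They are therefore not parts of the gene's CPM, whereas the shares in percent are taken from the counts. The sequences show where each transcript departs from its gene's coding transcript. They are from GENCODE 29 in GRCh38, 5′ to 3′ on the gene's strand. The capitals mark the exon that the first pairs share (for ATG12 chr5:115832602-115832664 and for ATG14 chr14:55390911-55390992, both minus strand). The lower-case letters before it are only the last bases of what precedes it in each transcript. For ATG16L2 the capitals mark a 63-base exon (chr11:72824060-72824122, plus strand) that ATG16L2-215 includes and ATG16L2-213 leaves out.
ATG12-211: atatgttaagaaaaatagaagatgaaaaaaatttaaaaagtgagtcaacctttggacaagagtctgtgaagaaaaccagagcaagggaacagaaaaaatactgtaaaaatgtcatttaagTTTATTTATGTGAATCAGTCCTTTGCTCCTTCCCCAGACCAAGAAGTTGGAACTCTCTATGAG
ATG12-208: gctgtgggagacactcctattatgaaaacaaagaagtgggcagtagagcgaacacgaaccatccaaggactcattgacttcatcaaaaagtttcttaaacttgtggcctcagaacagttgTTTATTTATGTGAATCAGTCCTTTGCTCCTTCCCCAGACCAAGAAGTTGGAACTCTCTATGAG
ATG14-202: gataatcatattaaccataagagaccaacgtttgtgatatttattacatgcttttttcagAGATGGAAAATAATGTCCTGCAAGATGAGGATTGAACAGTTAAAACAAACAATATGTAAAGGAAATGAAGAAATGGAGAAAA
ATG14-201: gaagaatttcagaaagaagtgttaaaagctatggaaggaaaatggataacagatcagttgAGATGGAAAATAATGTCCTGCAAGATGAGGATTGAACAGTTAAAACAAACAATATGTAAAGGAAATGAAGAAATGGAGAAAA
ATG16L2-215: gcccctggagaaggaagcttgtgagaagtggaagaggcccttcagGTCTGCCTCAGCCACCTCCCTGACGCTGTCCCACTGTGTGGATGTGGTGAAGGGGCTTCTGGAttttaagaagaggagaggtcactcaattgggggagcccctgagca
ATG16L2-213: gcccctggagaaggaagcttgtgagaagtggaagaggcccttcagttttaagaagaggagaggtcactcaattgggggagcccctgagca

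ATG12 encodes the ubiquitin-like protein that is joined to ATG5. The gene sum was 44.5 and 44.3 CPM in S1KO against 31.6 and 27.8 CPM in WT, with a log2 fold change of 0.58 (SE 0.17, edgeR adjusted p = 0.151). ATG12-211, a 692-base transcript annotated as noncoding, begins in an exon of its own of 244 bases (chr5:115834918-115835161, minus strand), none of which lies in another ATG12 exon. It held 39.9% of the ATG12 counts in S1KO 1 (95% Wilson interval 36.2 to 43.6) and 34.5% in S1KO 2 (31.5 to 37.6), against 1.81% in WT 1 (1.12 to 2.92) and 4.48% in WT 2 (3.29 to 6.06). These intervals cover counting error only. The main coding transcript, ATG12-208, whose exon before the shared one belongs to the reading frame, overlapped between the genotypes, with 17.3 and 21.1 CPM in S1KO against 18.7 and 16.2 CPM in WT. With ATG12-211 left out of the sum, ATG12 was at -0.045 (SE 0.18, edgeR adjusted p = 0.918). ATG12 was called under the length offset (1.87, edgeR adjusted p = 0.0198), and ATG12-211 held 75.7% and 75.1% of the ATG12 TPM in S1KO against 9.83% and 20.3% in WT.

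ATG14 showed the opposite arrangement. ATG14-202 retains intron sequence in place of the upstream exons of ATG14-201. It had 2.84 estimated counts in S1KO 1 and 0 in S1KO 2, against 349.7 in WT 1 and 661 in WT 2. Its share of the ATG14 counts was 0.88% in S1KO 1 (95% Wilson interval 0.30 to 2.55). In S1KO 2 it was 0%, where 0 of 540 estimated counts allows up to 0.706% by the same interval, for counting error only. In WT it was 44.1% (40.7 to 47.6) and 61.3% (58.4 to 64.2). The coding transcript, ATG14-201, ran the other way, with 23.9 and 25.7 CPM in S1KO against 15.9 and 12.9 CPM in WT (log2 fold change 0.78, SE 0.24, edgeR adjusted p over all transcripts 0.303). These levels are on the scale of the transcript fit, so they can exceed the CPM of the gene. With ATG14-202 left out, the gene sum of ATG14 changed sign and stood at 0.72 (SE 0.20, edgeR adjusted p = 0.14). Over all protein-coding genes, retained-intron transcripts took 7.48% and 10.5% of the counts in S1KO against 10.4% and 11.9% in WT. For ATG4B they took 70.4% and 71.6% in S1KO against 68.2% and 69.3% in WT, so most ATG4B counts in every library fell on transcripts annotated as not coding.

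ATG16L2, a relative of ATG16L1 that also binds ATG5, overlapped between the genotypes as a gene, with 395.7 and 438.9 CPM in S1KO against 303.7 and 442.2 CPM in WT (log2 fold change 0.16, SE 0.23, edgeR adjusted p = 0.745). ATG16L2-213, the coding transcript that skips the 63-base exon, had 113.7 and 147.3 CPM in S1KO against 6.06 CPM in WT 1 and 0 in WT 2. Among the counts of the 8 transcripts that span the exon, the share without it was 44.5% in S1KO 1 (95% Wilson interval 42.9 to 46.2) and 53.1% in S1KO 2 (51.8 to 54.4). It was 5.47% in WT 1 (4.73 to 6.34) and 0% in WT 2, where the 6565 estimated counts allow up to 0.0585% by the same interval. The coding transcript with the exon, ATG16L2-215, overlapped between the groups, at 74.9 and 69.8 CPM in S1KO against 56.6 and 76.7 CPM in WT. Transcripts annotated for nonsense-mediated decay took 17.7% and 16.8% of the ATG16L2 counts in S1KO against 29.4% and 41.9% in WT. With protein-coding transcripts only, ATG16L2 was at 0.88 (edgeR adjusted p = 0.22).

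**Figure D3:**
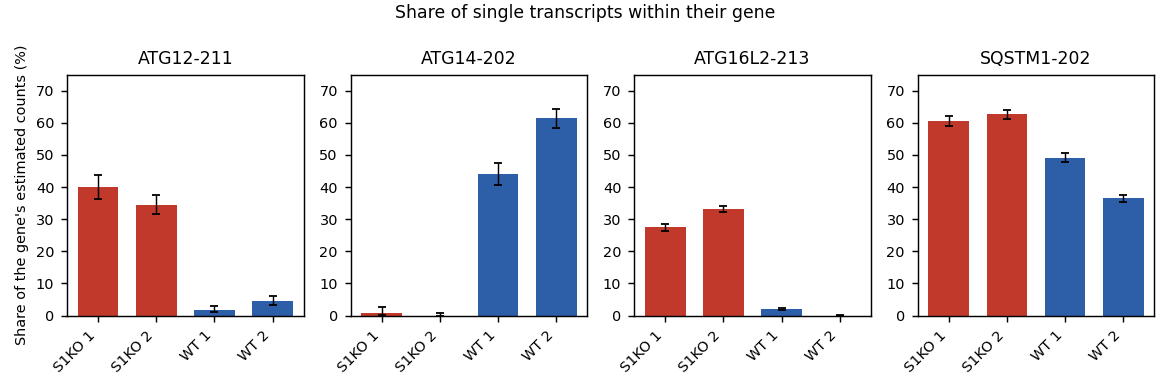
Share of 4 single transcripts in the estimated counts of their gene, in percent, for S1KO 1 and S1KO 2 (red) and WT 1 and WT 2 (blue). Error bars are 95% Wilson intervals for counting error. ATG12-211 and ATG16L2-213 are at 27.4% or more in S1KO and at 4.48% or less in WT, and ATG14-202 is at 44.1% or more in WT and at 0.88% or less in S1KO. SQSTM1-202 is at 60.6% and 62.7% in S1KO and at 49.2% and 36.5% in WT.

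A test over single transcripts called none of these in edgeR. Of 456 transcripts of the members 176 were tested, and 0 passed an adjusted p of 0.05, as for all 53714 transcripts tested (0.0%), although 34 of the 176 had an unadjusted p under 0.05, where 13.9% of all transcripts had. DESeq2 called 13 member transcripts of 10 genes (7.39% of 176), 7 higher and 6 lower, where it called 5.65% of all transcripts. ATG12-211 had a log2 fold change of 4.24 (SE 0.52, edgeR adjusted p = 0.223), and DESeq2 gave it an adjusted p of 4.33e-11. ATG14-202 had an edgeR adjusted p of 0.223 and a DESeq2 adjusted p of 7.45e-10. ATG16L2-213, with its large spread, was at 5.44 (SE 1.98, edgeR adjusted p = 0.354). It passed only with no filter (edgeR adjusted p = 0.0433) and with limma on log2(TPM + 1) (adjusted p = 0.0483). SQSTM1-202, a coding transcript, had 175.2 and 144.3 CPM in S1KO against 85.7 and 80.3 CPM in WT (log2 fold change 0.94, SE 0.20, edgeR adjusted p = 0.238, DESeq2 adjusted p = 0.00104). It held 60.6% and 62.7% of SQSTM1 counts in S1KO against 49.2% and 36.5% in WT, and on log2(TPM + 1) it was at -0.088. BECN1-215 and the ATG9A transcripts ATG9A-202 and ATG9A-205, all coding, were at 0 estimated counts in both S1KO libraries. In WT they had 132.5 and 49.1, 101.3 and 38.8, and 83.4 and 55.5 counts, and DESeq2 called each of them. ATG7-202, another coding transcript, had 15.1 and 5.74 CPM in S1KO against 1.45 and 1.40 CPM in WT (DESeq2 adjusted p = 0.00282). ATG13-205, a noncoding transcript, had 5.37 and 7.54 CPM in S1KO against 1.12 and 1.55 CPM in WT (DESeq2 adjusted p = 0.00645), and ATG13 was at 0.28 with protein-coding transcripts only. For ATG5, the coding ATG5-208 had 72.5 and 31.9 estimated counts in S1KO and under 1 in each WT library. The decay-annotated ATG5-203 had under 1 in each S1KO library, against 35.1 and 67.2 in WT. The remaining calls were a coding transcript each of ATG13 and TAX1BP1, both higher, and a decay-annotated one of UVRAG, lower.

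**Figure D4:**
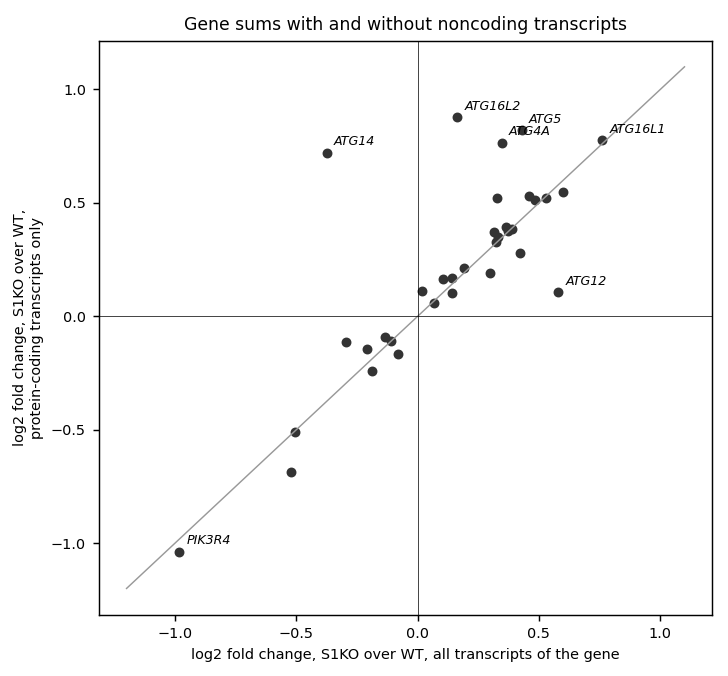
Log2 fold change of S1KO over WT for the members from all transcripts of a gene (horizontal) and from its protein-coding transcripts only (vertical). The line marks equal values. ATG14 crosses 0 (-0.38 and 0.72), ATG16L2 moves up (0.16 and 0.88) and ATG12 down (0.58 and 0.11), while PIK3R4 and ATG16L1 stay near the line.

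Further genes of the pathway were counted from 4 lists of 71 genes, of which 65 could be tested. Of these, 35 had positive and 30 negative fold changes, with a median of 0.054. For these and for the single lists below, 48.7% of all genes tested had a positive fold change. None passed edgeR's test. At an unadjusted p under 0.05, 7 of the 65 were higher and 8 lower, where 10.2% and 9.21% of all genes were. DESeq2 called 3 higher and 2 lower, where it called 4.24% and 3.28% of all genes. These counts were near the shares over all genes. In the list of organelle receptors, 7 of 17 were positive. RTN3, a receptor that delivers endoplasmic reticulum tubules, had 48.9 and 59.5 CPM in S1KO against 98.6 and 89.7 CPM in WT (log2 fold change -0.80, SE 0.17, edgeR adjusted p = 0.0951, DESeq2 adjusted p = 0.00478). CALCOCO1, likewise a receptor for endoplasmic reticulum, had 60.6 and 54.5 CPM in S1KO against 79.6 and 97.6 CPM in WT (log2 fold change -0.62, edgeR adjusted p = 0.143). In the list of paralogs and accessory subunits, 3 of 10 were positive. TMEM41B, a scramblase of the endoplasmic reticulum, had 10.9 and 15.8 CPM in S1KO against 22.3 and 25.4 CPM in WT (log2 fold change -0.83). The ULK-related kinase ULK3 had 130.1 and 159.5 CPM in S1KO against 181.3 and 231.1 CPM in WT (log2 fold change -0.51, but 0.22 with protein-coding transcripts only). In the list for fusion with the lysosome, 11 of 15 were positive. VPS41, of the HOPS tether, had 60.7 and 44.8 CPM in S1KO against 36.9 and 30.4 CPM in WT (log2 fold change 0.65). The SNARE VAMP8 had 169.5 and 154 CPM in S1KO against 125.9 and 98.1 CPM in WT (log2 fold change 0.53). In the TORC1 and AMPK list, 14 of 23 were positive. AKT1S1 (PRAS40), an inhibitory TORC1 subunit and AKT substrate, had 68.8 and 84.1 CPM in S1KO against 43.8 and 46.2 CPM in WT (log2 fold change 0.77, SE 0.18, edgeR adjusted p = 0.0992, DESeq2 adjusted p = 0.00882). The Rag GTPase RRAGC, which recruits TORC1 to lysosomes, had 45.1 and 34.6 CPM in S1KO against 23.6 and 20.7 CPM in WT (log2 fold change 0.85, SE 0.21, edgeR adjusted p = 0.108). VPS41, VAMP8, AKT1S1 and RRAGC all turned negative on the TPM scale. With TPM rescaled without mitochondrial transcripts they were at 0.56, 0.46, 0.65 and 0.60.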

How the data were processed

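Per the labels' protocols, poly-A RNA from a column kit was read as pairs of 150 bases. The submitters' processing notes name kallisto and hg38, whose version and transcript set are not stated. In each library the deposited file holds, per the file headers, an estimated count and a TPM for each of 188753 transcripts, with no pooling. By GENCODE 29, 169797 transcripts got a gene by identifier and 15521 by symbol. The other 3435 (0.323% to 0.643% of counts) stayed out.

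Gene sums of estimated counts were rounded, filtered (filterByExpr, 15378 of 35585 genes kept), scaled by TMM (factors 0.654 and 0.957 in S1KO, 1.31 and 1.22 in WT) and tested with edgeR 4.0.16 in R 4.3.3 (glmQLFTest, two-sided, genotype only, Benjamini-Hochberg over all genes, threshold 0.05). DESeq2 1.42.0 and limma 3.58.1 were alternatives. Fits were checked on simulated data. Every pair of libraries had at least 261 genes over 4-fold apart, so no library repeats another. Independent cultures are assumed.

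The members and lists were chosen with earlier results of these data known. Library values are given for the ATG8 genes, the cargo receptors, each other step's most abundant member and its 2 of smallest p, and members with separate groups and an absolute log2 fold change of at least 0.5; in other lists, the 2 genes of smallest p. Strand was not stated, so antisense reads cannot be told apart.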

Additional observations from a re-analysis of the deposited data

How the results depend on the processing

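Of 546 values of single members under the alternatives, 464 kept direction and side of the threshold, 12 passed it in the same direction and 70 changed sign. No member was called with edgeR (7 at an unadjusted p under 0.05). The count was 1 with DESeq2, 2 with no filter (ATG16L1 and PIK3R4), 1 with the length offset and 1 with limma on TPM without mitochondrial transcripts (ATG12 in both), 1 each with log2(TPM + 1) and log2(TPM + 0.1) (PIK3R4), and 0 to 3 with a library left out. It was 3 without WT 1 (ATG12, PIK3R4 and OPTN) and 2 without WT 2 (ATG16L1 and GABARAPL1). Other autophagy genes called were 0, against 5 with DESeq2, 4 with no filter and 11 with either TPM scale, and 0 to 10 with a library left out. Over all genes 144 were called, against 1157 with DESeq2, 1362 with no filter, 223 with a stricter filter, 2893 with log2(TPM + 1), 2638 with log2(TPM + 0.1), 21 with protein-coding transcripts only and 40 with protein-coding genes only. Leaving out a library gave 0 to 2148 calls: 0 without S1KO 1 and 0 without S1KO 2 (1171 and 1636 genes had an unadjusted p under 0.05), 2007 without WT 1 and 2148 without WT 2. With 1 library in a group, that library is assumed to vary like the others. Transcripts of members called, 0 in edgeR, were 13 with DESeq2, 10 with no filter and 5 with log2(TPM + 1).

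With the replicate number as a block (replicate block), 0 of all genes and 0 members were called and the members' median was 0.24. Same-numbered libraries did not deviate together (correlation 0.023). With so few libraries per genotype, this value cannot decide whether the numbers pair the libraries. Whether same-numbered libraries shared a batch was not tested.

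The members' median moved to -0.69 with log2(TPM + 1), -0.76 with log2(TPM + 0.1) and 0.14 without mitochondrial transcripts, and lay between 0.12 and 0.30 with a library left out. In TPM a larger mitochondrial share leaves less of the fixed total to other genes. The log2 fold changes that changed sign with log2(TPM + 1) were ULK2 -0.37, ATG101 -0.61, RB1CC1 -0.86, BECN1 -1.05, PIK3C3 -0.35, WIPI1 -0.99, WIPI2 -0.67, ATG3 -0.79, ATG4A -0.67, ATG4C -0.50, ATG5 -0.47, ATG7 -0.29, ATG10 -0.28, ATG16L1 -0.21, ATG16L2 -0.49, GABARAP -1.08, GABARAPL1 -0.45, GABARAPL2 -0.84, SQSTM1 -0.71, OPTN -0.41, NBR1 -0.59, TAX1BP1 -0.58. With log2(TPM + 0.1) they were ULK2 -0.43, ATG101 -0.64, RB1CC1 -0.97, BECN1 -1.10, PIK3C3 -0.39, WIPI1 -1.03, WIPI2 -0.69, ATG3 -0.82, ATG4A -0.80, ATG4C -0.54, ATG5 -0.54, ATG7 -0.30, ATG10 -0.32, ATG16L1 -0.23, ATG16L2 -0.49, GABARAP -1.08, GABARAPL1 -0.46, GABARAPL2 -0.85, SQSTM1 -0.72, OPTN -0.48, NBR1 -0.63, TAX1BP1 -0.60. With TPM without mitochondrial transcripts they were RB1CC1 -0.072, BECN1 -0.19, WIPI1 -0.12, GABARAP -0.17, CALCOCO2 0.059, and with the length offset RB1CC1 -0.024, BECN1 -0.12, WIPI1 -0.034, GABARAP -0.089, CALCOCO2 0.15. ATG14 was at 0.72 with protein-coding transcripts only and at 0.72 without ATG14-202, and ATG12 at -0.045 without ATG12-211. Ranges that crossed 0 with a library left out were ATG16L2 -0.083 to 0.46, ATG2A -0.39 to 0.24, ATG3 -0.22 to 0.42, ATG4B -0.28 to 0.071, GABARAP -0.068 to 0.17, GABARAPL2 -0.12 to 0.28, MAP1LC3B -0.43 to 0.094, OPTN -0.13 to 2.11, ULK2 -0.095 to 0.32, UVRAG -0.55 to 0.24, WIPI1 -0.22 to 0.21. The causes of these changes of sign were not tested beyond the transcripts left out. Depth outside mitochondrial transcripts was lower in S1KO, and with 2 libraries per group an adjusted p above the threshold does not show that a gene was equal.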
